A study of Mus musculus with 2 samples.

Results

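The genes described here are 48 components of the Wnt and beta-catenin pathway, chosen by symbol and grouped by role into 8 ligands, 11 receptors, 8 secreted inhibitors, 7 cytoplasmic components, 4 TCF/LEF transcription factors and 10 feedback genes and targets. All 48 had 1 entry in the deposited tables, which hold 24460 entries for 23950 symbols. Expression was measured by RNA-seq in optic nerve of mice of mixed strain at postnatal day 12. Hdac3 encodes a histone deacetylase, an enzyme that removes acetyl groups from histones. The Hdac3 cKO group was 1 library of Hdac3f/f; Olig1-cre animals, and the control group was 1 library of Hdac3f/+; Olig1-cre animals. Olig1-cre is a recombinase made where the Olig1 gene is active, mainly in oligodendrocyte lineage cells. Alleles named f can be removed by it, and the controls therefore carry the recombinase and 1 such allele as well. How many animals were pooled per library is unknown here, and the whole nerve also holds astrocytes, vessels, microglia and meningeal cells.

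Wnt ligands bind Frizzled receptors together with the co-receptors LRP5 or LRP6. This stops a destruction complex built on APC and AXIN from marking beta-catenin for breakdown, and beta-catenin then acts with TCF/LEF factors on target genes. In the oligodendrocyte lineage the pathway is known as a brake on differentiation when it is strongly active, and in the vessels of the central nervous system it is needed for the blood-brain barrier.

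The values are FPKM, in which fragments are divided by transcript length and a library total, so levels of different genes can be set side by side. Genes that reached 1 FPKM in either library were tested, which held for 14154 genes and for 45 of the 48 members. The difference is log2 of the cKO FPKM plus 1 over the control FPKM plus 1, which understates the change of low genes. Genes past 2-fold on this scale whose deposited intervals lay apart were counted higher or lower. Each group is 1 library, so there is no replicate check and no p-value. All counts and differences below belong to these libraries and not to the genotypes, and the deposited intervals carry no variation between animals. Deposited FPKM summed to 557861 in the cKO-labelled library and 441867 in the control-labelled library, the read depth is unknown, and the median half-width of the interval over 30 members at 5 FPKM or more in both was 3.60% and 7.58% of its midpoint in those libraries. Hdac3 had 38.04 FPKM in the cKO-labelled library and 36.4 FPKM in the control-labelled library, a whole-gene value that leaves the genotype labels unchecked.

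Of the 45 members tested, 12 were counted higher in cKO and 0 were counted lower. Over all 14154 genes the same rule counted 4.73% higher and 4.51% lower. Among 64 tested pathway genes outside the members it counted 10.9% higher and 3.13% lower. Members and lists were chosen with earlier results of these data known, so their contrast with all genes is a description only. The difference was above 0 for 40 of the 45 members, against 61.4% of all tested genes. Sfrp5, which was counted, and Sp5 were tested only through their cKO level. Of the members too low to be tested, Wnt7a and Lgr5 were lower in cKO with intervals apart, and Dkk2 was higher with overlapping intervals. The members' median log2 difference was 0.70, beside 0.12 for all tested genes. The intervals lay apart with cKO above control for 36 members, against 38.4% of all tested genes, and with cKO below control for 4 members, against 22.5%. The counted members were 4 of 7 tested ligands, 3 of 11 receptors and 5 of 7 tested secreted inhibitors. None of the 7 cytoplasmic components, 4 TCF/LEF factors and 9 tested feedback genes and targets was counted. For 8 of the 12 counted members the cKO value exceeds its own interval. These are Wnt4, Wnt6, Fzd1, Fzd2, Sfrp1, Dkk3, Wif1 and Notum. The interval bounds alone give a 2-fold difference for 4 of the 12, Fzd1, Dkk3, Wif1 and Notum. 

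The counts depend on the scaling and the thresholds. With both libraries brought to the same sum of FPKM, which moved the median of all tested genes to -0.17, 2 members were higher, against 1.52% of all tested genes, 1 was lower, against 6.8%, and 33 of 45 differences were above 0. Centring on the median of all tested genes left 6 members higher, against 3.1%, and 0 lower, against 5.38%. At the same upper quartile 9 members were higher, against 3.75%, and 0 lower, against 4.92%. A threshold of 1.5-fold gave 25 members higher (16.0% of all tested genes) and 2 lower (8.85%), and 3-fold gave 1 higher (0.643%) and 0 lower (1.75%). With a pseudocount of 0.1, 15 members were higher (8.17%) and 1 lower (5.81%), and with a pseudocount of 5, 3 were higher (1.99%) and 0 lower (2.4%).

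**Figure D1:**
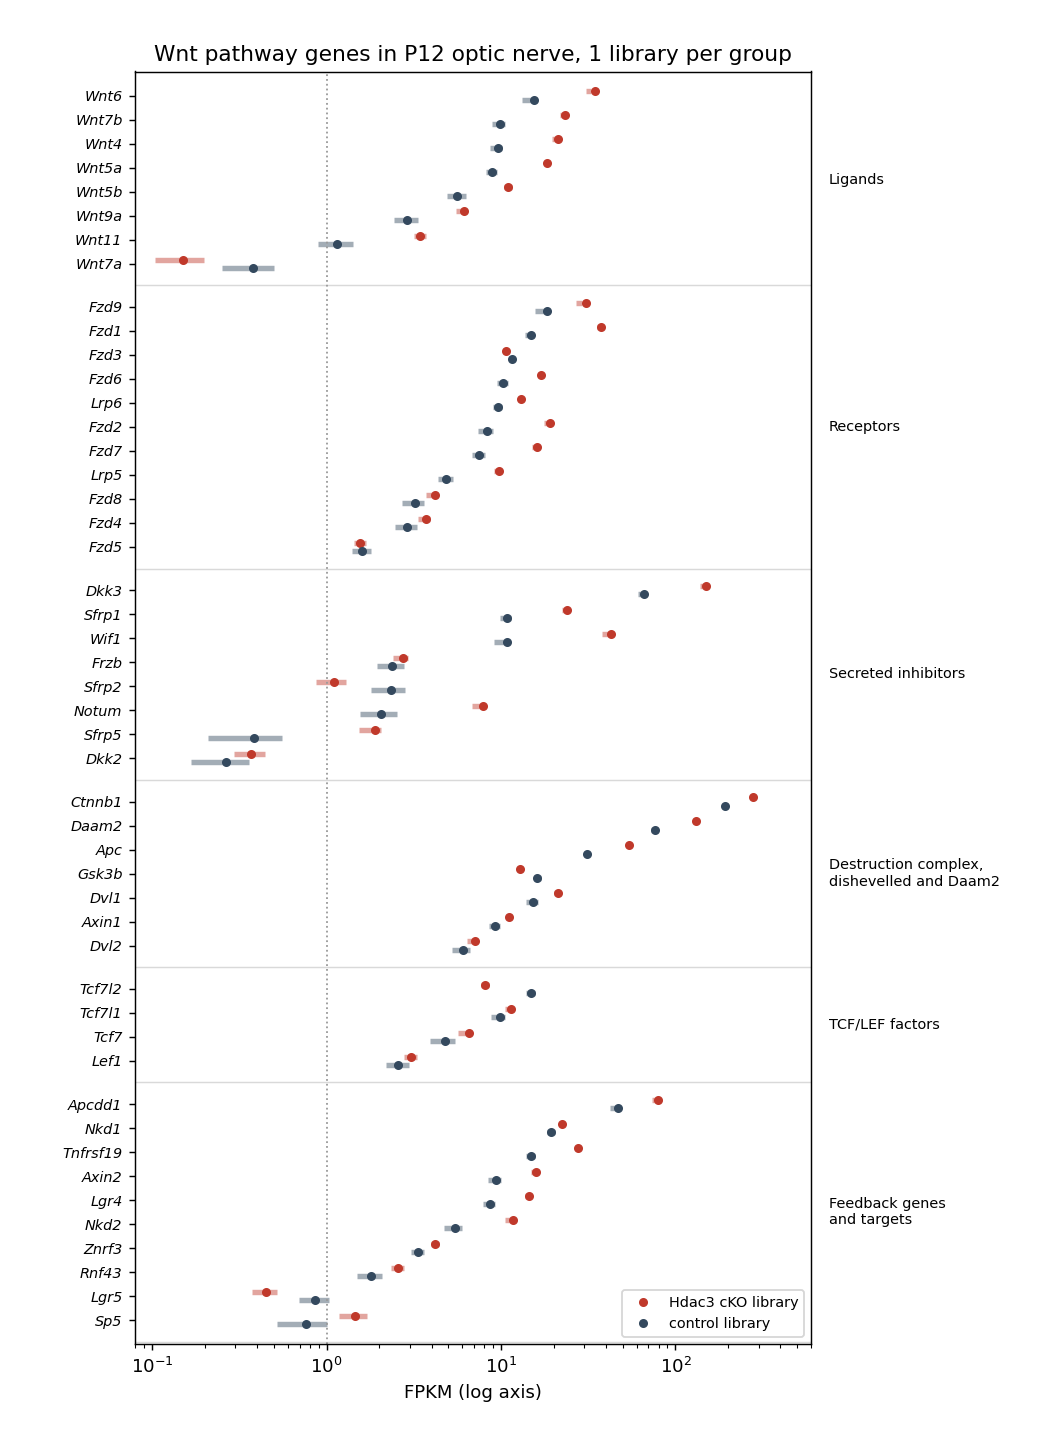
FPKM of the 48 Wnt pathway genes on a log axis, by role and in order of their control level. Red points are the Hdac3 cKO library, dark points the control library, and bars the deposited intervals, which some values exceed; the dotted line marks 1 FPKM. Ctnnb1, Dkk3 and Daam2 are the highest genes in the cKO library, and Wnt7a, Dkk2 and Lgr5 lie under 1 FPKM in both.

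Among the ligands, Wnt6 (chromosome 1, 74818466 to 74831893, mm9) had the highest level in both libraries. Its level was 34.6 FPKM in the cKO-labelled library (deposited interval 30.5 to 32.9), against 15.5 FPKM in the control-labelled library (13.2 to 16.1), a log2 difference of 1.11. The intervals lie apart, although the cKO value exceeds its own interval. Wnt7b (chromosome 15, 85365867 to 85412251), a ligand that acts through beta-catenin and that reaches vessel cells by way of the receptor pair Gpr124 and Reck, was at 23.1 FPKM (21.8 to 23.4) in the cKO-labelled library and 9.83 FPKM (8.94 to 10.6) in the control-labelled library, with a log2 difference of 1.16. Its locus overlaps another entry, AU022754, and without strand their reads can be mixed. Wnt4 (chromosome 4, 136833550 to 136855416) was at 21.3 FPKM (19.7 to 21.2) in cKO and 9.60 FPKM (8.61 to 10.2) in control, with a log2 difference of 1.07. Wnt11, a ligand best known for signalling without beta-catenin, was low but counted, at 3.45 FPKM (3.17 to 3.73) in cKO and 1.15 FPKM (0.889 to 1.42) in control, with a log2 difference of 1.05. For each of these 4 ligands the cKO interval lay wholly above the control interval.

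The remaining ligands included Wnt5a and Wnt5b, which also act mostly outside the beta-catenin route. Wnt5a was at 18.3 FPKM in cKO and 8.83 FPKM in control, and its log2 difference of 0.98 fell just short of the rule. Wnt5b was at 10.98 FPKM in cKO and 5.59 FPKM in control, and Wnt9a at 6.16 FPKM in cKO and 2.91 FPKM in control. Their intervals lay apart as well, with log2 differences of 0.86 and 0.87. Wnt7a, the close relative of Wnt7b, was at 0.150 FPKM in cKO and 0.378 FPKM in control and was too low to be tested. The 8 ligands summed to 118 FPKM in cKO and 53.8 FPKM in control. Their order by level was identical in the 2 libraries, running from Wnt6 through Wnt7b, Wnt4, Wnt5a, Wnt5b, Wnt9a and Wnt11 to Wnt7a. Shares within a library do not depend on the scaling between libraries, and Wnt6 held 29.3% of the ligand sum in cKO and 28.8% in control, Wnt7b 19.6% and 18.3%, and Wnt4 18.0% and 17.8% in the same order. The tested ligands were all above 0 in the log2 difference under each of the 3 other scalings, while the number counted higher became 2 at the same upper quartile, 1 after centring and 0 at the same sum.

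Frizzled proteins are membrane receptors for Wnt ligands, and they differed more among themselves. Fzd1 (chromosome 5, 4753839 to 4758216) was at 37.6 FPKM (35.4 to 37.0) in cKO and 14.9 FPKM (13.7 to 15.5) in control, with a log2 difference of 1.28. Fzd2 was at 19.2 FPKM (17.7 to 19.1) in cKO and 8.29 FPKM (7.38 to 8.97) in control, with a log2 difference of 1.12. Fzd7 lay at the threshold, at 16.0 FPKM (15.05 to 16.2) in cKO and 7.52 FPKM (6.82 to 8.07) in control, with a log2 difference of 1.001. These 3 receptors were counted higher on the deposited scale, 0 of them at the same sum, and the cKO values of Fzd1 and Fzd2 exceed their own intervals. Fzd9, the most abundant Frizzled gene of the control-labelled library, was at 30.6 FPKM (27.0 to 29.2) in cKO and 18.4 FPKM (15.8 to 18.6) in control, with a log2 difference of 0.70. Fzd6, with roles in planar cell polarity, was at 16.9 FPKM in cKO and 10.2 FPKM in control (log2 0.68). Fzd3, which guides axons and works in planar polarity beside Fzd6, was at 10.6 FPKM (10.3 to 10.8) in cKO and 11.5 FPKM (11.1 to 12.0) in control (log2 -0.11). Fzd4, a receptor of Wnts and of Norrin in vessels, was at 3.71 FPKM in cKO and 2.89 FPKM in control, Fzd8 at 4.17 FPKM and 3.19 FPKM in that order, and Fzd5 at 1.56 FPKM in cKO and 1.59 FPKM in control with overlapping intervals.

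Within the Frizzled family the order of levels therefore differed between the libraries. Fzd1 held 26.8% of the summed Frizzled FPKM in cKO and 19.0% in control, and Fzd3 held 7.56% in cKO and 14.7% in control. Fzd9 held 21.8% in cKO and 23.4% in control. The co-receptor Lrp5 was at 9.72 FPKM in cKO and 4.85 FPKM in control (log2 0.87), and Lrp6 at 12.9 FPKM in cKO and 9.57 FPKM in control (log2 0.40). Neither was counted, although the intervals of each lay apart. The ratio of Lrp6 to Lrp5 was 1.33 in cKO and 1.97 in control.

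The secreted inhibitors held the largest differences of all 48 members. Wif1 (chromosome 10, 120471060 to 120537698), a protein that binds Wnt ligands outside the cell, was at 42.7 FPKM (38.1 to 40.8) in cKO and 10.8 FPKM (9.16 to 11.2) in control. Its log2 difference was 1.89, and 98.8% of all tested genes had a smaller one. Notum (chromosome 11, 120515103 to 120522151), an enzyme that inactivates Wnt ligands by removing their lipid, was at 7.90 FPKM (6.78 to 7.88) in cKO and 2.06 FPKM (1.56 to 2.53) in control, with a log2 difference of 1.54. At the same sum of FPKM these 2 members were the ones still counted higher, with log2 differences of 1.56 for Wif1 and 1.25 for Notum, while Notum fell short of the rule at 0.87 with a pseudocount of 5. Dkk3 (chromosome 7, 119259533 to 119302571), a divergent Dickkopf protein without a settled role in Wnt signalling, was by far the most abundant inhibitor, at 149 FPKM (139 to 143) in cKO and 66.4 FPKM (61.0 to 65.7) in control. Its log2 difference was 1.16, or 0.82 and no longer counted at the same sum of FPKM, and both values exceed their own intervals.

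The sFRP proteins resemble the ligand-binding part of Frizzled receptors and take up Wnts. Sfrp1 (chromosome 8, 24521974 to 24560104) was at 24.0 FPKM (22.5 to 23.8) in cKO and 10.9 FPKM (9.88 to 11.5) in control, with a log2 difference of 1.08. Sfrp5 was at 1.90 FPKM (1.53 to 2.05) in cKO and 0.384 FPKM (0.210 to 0.553) in control, a 4.93-fold ratio of low values whose log2 difference with the pseudocount was 1.06. It was tested only through its cKO level. Sfrp1 and Sfrp5 were both counted higher, with intervals apart. Sfrp2 differed in the other direction, at 1.11 FPKM (0.869 to 1.30) in cKO and 2.34 FPKM (1.79 to 2.82) in control, with a log2 difference of -0.66. It was not counted, and its log2 difference was -1.01, past the rule, with a pseudocount of 0.1. Frzb was at 2.75 FPKM in cKO and 2.37 FPKM in control with overlapping intervals. Dkk2, which blocks the LRP co-receptors, was at 0.368 FPKM in cKO and 0.266 FPKM in control. Its intervals overlapped as well, and it was not tested.

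The 8 secreted inhibitors summed to 230.0 FPKM in cKO and 95.4 FPKM in control. Dkk3 held 64.9% of this sum in cKO and 69.6% in control, Wif1 18.6% in cKO and 11.3% in control, and Sfrp1 10.4% in cKO and 11.4% in control. The summed inhibitors stood at 1.95 times the summed ligands in cKO and 1.77 times in control, and at 0.684 times and 0.540 times in the same order without Dkk3. The ratio of Wif1 to Sfrp1 was 1.78 in cKO and 0.993 in control. Ligands and their secreted inhibitors were thus both higher in the cKO-labelled library on the deposited scale, and these transcript sums carry no information on protein or on signalling.

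**Figure D2:**
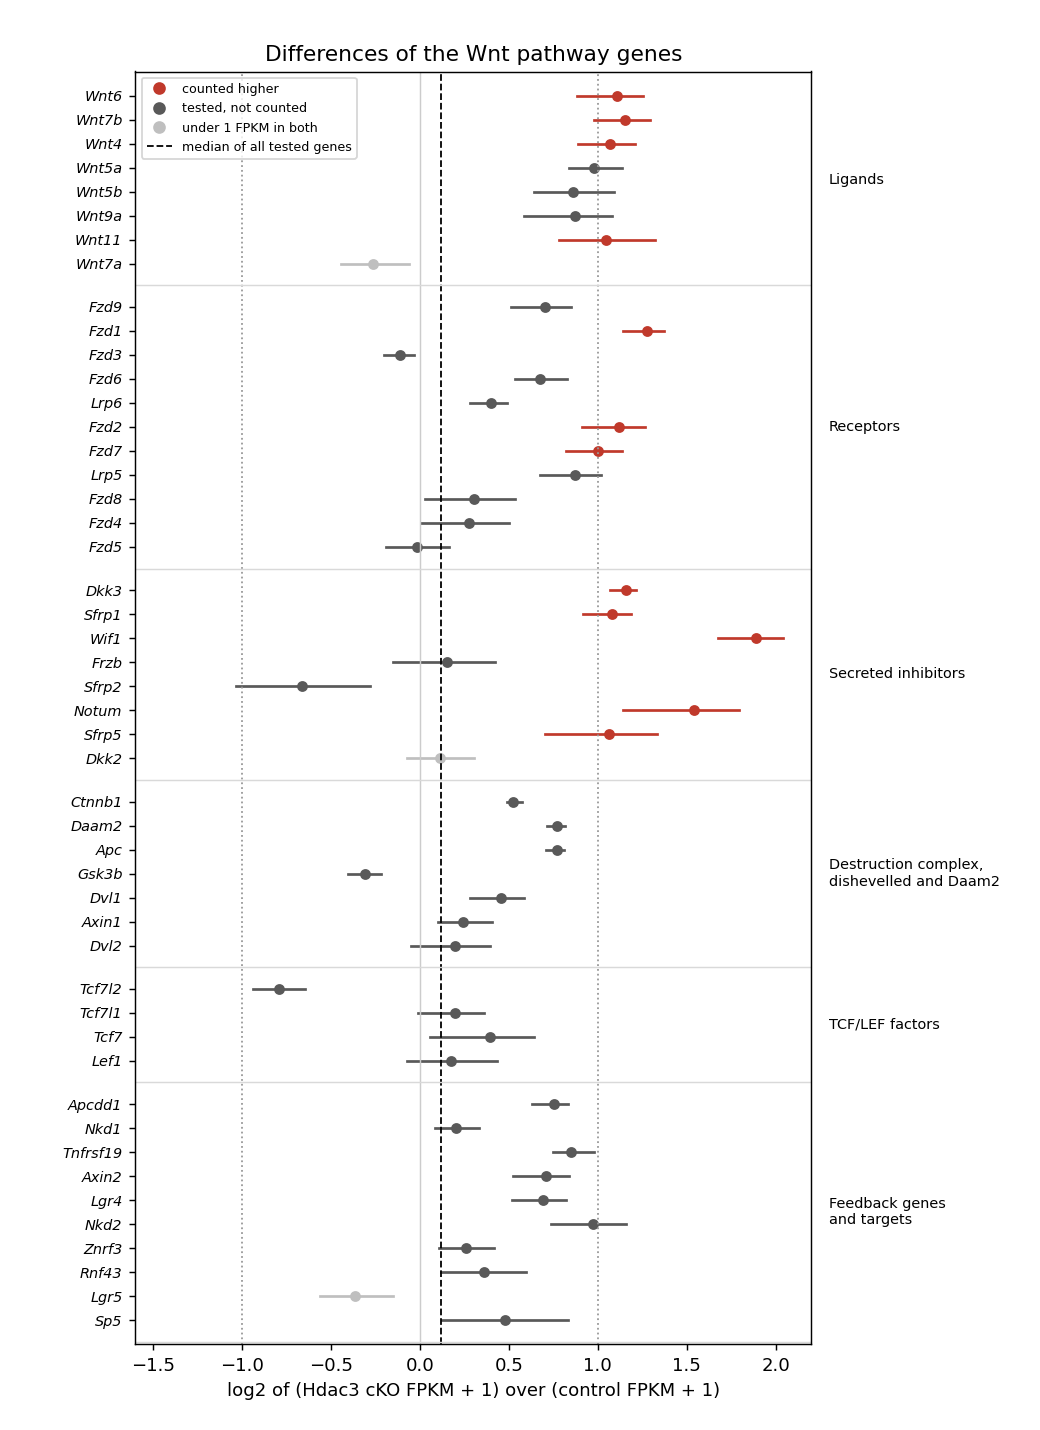
Log2 differences of the 48 genes, cKO over control with a pseudocount of 1, by role. Lines span the range that the deposited interval bounds give; red genes were counted higher, dotted lines mark 2-fold and the dashed line is the median of all tested genes, 0.12. The 12 counted genes are ligands, Frizzled receptors and secreted inhibitors, and the lowest point is Tcf7l2 at -0.79.

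Cytoplasmic components were closer to the median of all genes, with a median log2 difference of 0.46 and 0 of 7 counted. Ctnnb1 (chromosome 9, 120842518 to 120869625), which encodes beta-catenin, also a part of cell junctions, was the most abundant member, at 278 FPKM (280.5 to 286) in cKO and 193 FPKM (192 to 199) in control. Its log2 difference was 0.53, and its cKO value lies under its own interval. Daam2, a formin that binds dishevelled and that in mice promotes Wnt signalling in glial precursors, was at 131 FPKM in cKO and 76.0 FPKM in control (log2 0.77). Apc, a scaffold of the destruction complex, was at 54.0 FPKM in cKO and 31.3 FPKM in control (log2 0.77). The 2 genes thus had nearly equal differences with intervals apart, and neither was counted.

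Gsk3b, a kinase of the destruction complex, was lower, at 12.8 FPKM (12.5 to 13.3) in cKO and 16.1 FPKM (15.7 to 16.9) in control, with a log2 difference of -0.31 that did not meet the rule. Axin1, the limiting scaffold, was at 11.1 FPKM in cKO and 9.21 FPKM in control (log2 0.24). The dishevelled genes, which carry the signal from Frizzled to the destruction complex, were at 21.3 FPKM in cKO and 15.3 FPKM in control for Dvl1 and at 7.12 FPKM in cKO and 6.09 FPKM in control for Dvl2. Only Dvl2 had overlapping intervals in this group. At the same sum of FPKM, 3 of the 7 cytoplasmic components had differences below 0, against 1 of 7 on the deposited scale.

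The TCF/LEF factors summed to 29.2 FPKM in cKO and 32.0 FPKM in control, the only role whose sum was lower in the cKO-labelled library. Tcf7l2 (chromosome 19, 55816300 to 56008145), the family member known for its rise in newly formed oligodendrocytes and also made by other cells, was at 8.11 FPKM (7.72 to 8.54) in cKO and 14.8 FPKM (13.9 to 15.7) in control. Its log2 difference of -0.79 was the lowest of the 45 tested members, with 6.75% of all tested genes lower. It did not meet the rule on the deposited scale and met it, at -1.09, at the same sum of FPKM. Tcf7l1, a repressor in many settings, was at 11.4 FPKM (10.5 to 11.5) in cKO and 9.83 FPKM (8.76 to 10.6) in control, with overlapping intervals. Tcf7 was at 6.57 FPKM in cKO and 4.77 FPKM in control (log2 0.39), and Lef1, which is active in vessels of the brain, was at 3.05 FPKM in cKO and 2.58 FPKM in control with overlapping intervals. The most abundant factor thus differed between the libraries. Tcf7l2 held 27.8% of the TCF/LEF sum in cKO and 46.3% in control, and Tcf7l1 held 39.2% in cKO and 30.7% in control. The median log2 difference of the 4 genes was 0.19, but -0.09 at the same sum of FPKM.

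**Figure D3:**
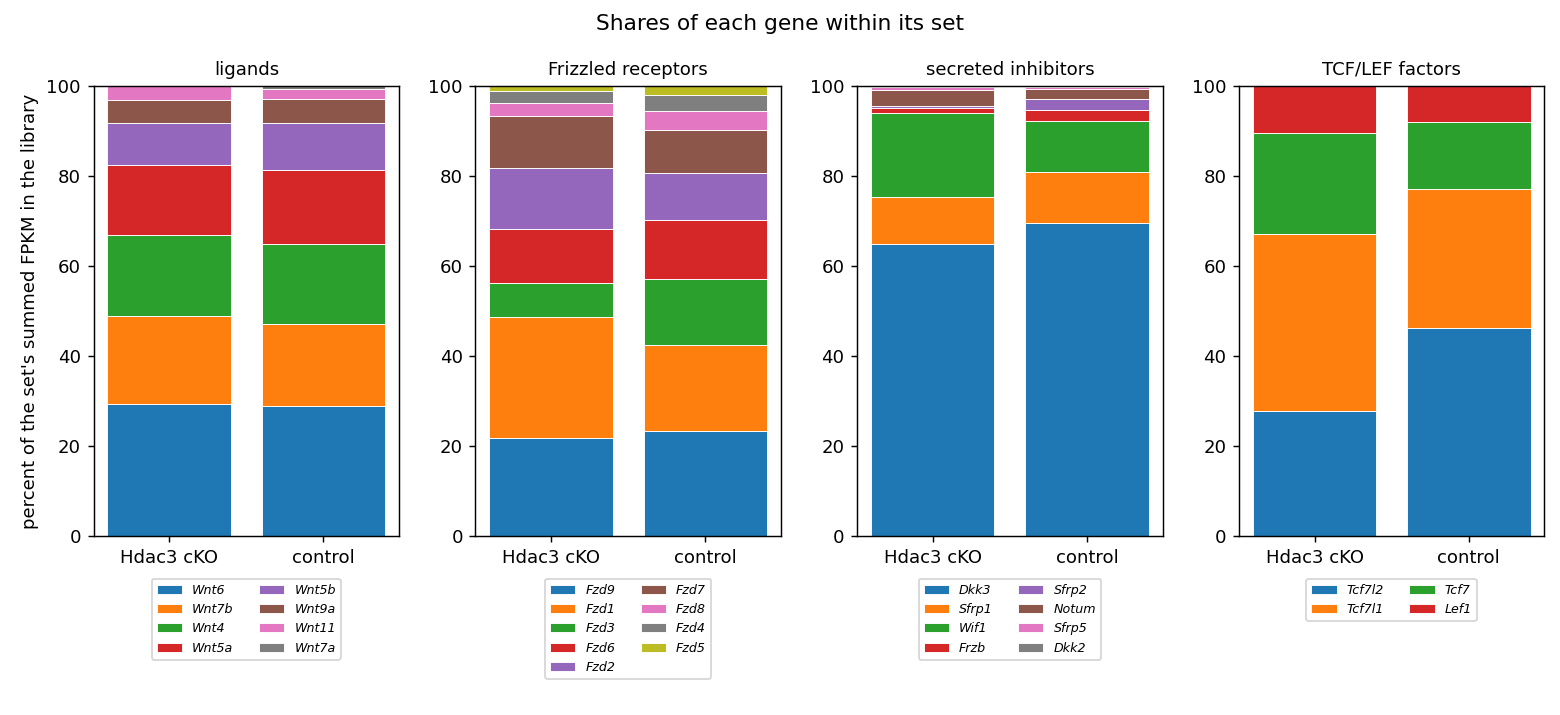
Percent of the summed FPKM of each set held by each gene in the Hdac3 cKO library and the control library. The ligand shares are close to each other in the 2 libraries (Wnt6 29.3% in cKO and 28.8% in control), whereas Tcf7l2 holds 27.8% of the TCF/LEF sum in cKO and 46.3% in control.

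Of the 10 feedback genes and targets 0 were counted, and 9 had log2 differences above 0 on the deposited scale, with Lgr5 below. The median was 0.69 over the 9 that were tested and 0.58 over all 10. Sp5 was tested only through its level in the cKO-labelled library, and at the same sum of FPKM 7 of the 9 tested genes were above 0. Axin2 (chromosome 11, 108781663 to 108812095), a scaffold of the destruction complex that beta-catenin itself induces and the most used readout of the pathway, was at 15.9 FPKM in cKO and 9.35 FPKM in control, with a log2 difference of 0.71. Its intervals, 14.8 to 15.9 in cKO and 8.46 to 10.01 in control, lay apart. The ratio of Axin2 to Axin1 was 1.44 in cKO and 1.02 in control. Apcdd1, a membrane inhibitor of Wnt signalling, had the highest level of this group, at 79.8 FPKM (73.1 to 76.2) in cKO and 47.0 FPKM (42.3 to 46.8) in control. Its log2 difference was 0.75, and both values exceed their intervals.

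Nkd1 and Nkd2 bind dishevelled and dampen the signal, and they differed from each other. Nkd2 was at 11.7 FPKM in cKO and 5.44 FPKM in control, a log2 difference of 0.98 just short of the rule, while Nkd1 was at 22.4 FPKM in cKO and 19.3 FPKM in control (log2 0.20). Tnfrsf19, a receptor of the TNF family also named Troy, was at 27.5 FPKM in cKO and 14.8 FPKM in control (log2 0.85). Lgr4, a receptor for R-spondins, the secreted proteins that strengthen Wnt signals, was at 14.5 FPKM in cKO and 8.61 FPKM in control (log2 0.69). Its relative Lgr5 was at 0.448 FPKM in cKO and 0.863 FPKM in control, at a locus that overlaps another entry, and was not tested. The ubiquitin ligases that remove Frizzled from the membrane were at 4.17 FPKM in cKO and 3.32 FPKM in control for Znrf3 and at 2.58 FPKM in cKO and 1.79 FPKM in control for Rnf43. Sp5, a transcription factor induced by beta-catenin, was low, at 1.46 FPKM (1.18 to 1.71) in cKO and 0.765 FPKM (0.518 to 1.002) in control (log2 0.48). The intervals of the 9 tested genes lay apart with cKO above control, and those of Lgr5 lay apart with cKO below control.

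The core motif bound by TCF/LEF factors was looked for in the 250 bases before the gene starts, to set the sequence beside the levels. RefSeq promoters (GRCm38.p6) were found for 32 members. CTTTGAT or its variants CTTTGAA and then CTTTGTT and also CTTTGTA, on either strand and with no overlap between the matches shown, were found for 7 of the 32 members (21.9%), against 12.3% of 10312 tested genes and 16.8% of all 27025 genes with a promoter. A gene had a match when any of its windows held 1, so a gene with more windows has more room for a match. Of the members with a match, Lef1, Wnt5b, Tcf7l2, Tnfrsf19 and Wnt11 had several windows and a match in 1 of them. The share of windows with a match was not compared. Matches were found for 2 of the 7 counted members that had a promoter, Fzd7 and Wnt11. Their sequences and that of Sp5, the target with the motif on both strands, are shown on the forward strand, which is the strand of each gene, with the motif or its reverse complement in capitals.
Fzd7: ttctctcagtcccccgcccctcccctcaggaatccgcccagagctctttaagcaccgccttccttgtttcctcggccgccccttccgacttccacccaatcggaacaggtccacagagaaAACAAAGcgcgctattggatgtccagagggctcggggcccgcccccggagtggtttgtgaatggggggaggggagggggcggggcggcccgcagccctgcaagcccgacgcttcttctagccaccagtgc
Wnt11: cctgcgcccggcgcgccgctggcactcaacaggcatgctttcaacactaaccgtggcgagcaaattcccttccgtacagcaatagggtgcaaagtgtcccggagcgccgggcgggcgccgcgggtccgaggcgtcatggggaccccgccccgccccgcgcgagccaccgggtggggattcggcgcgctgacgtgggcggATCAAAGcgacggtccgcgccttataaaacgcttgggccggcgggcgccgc
Sp5: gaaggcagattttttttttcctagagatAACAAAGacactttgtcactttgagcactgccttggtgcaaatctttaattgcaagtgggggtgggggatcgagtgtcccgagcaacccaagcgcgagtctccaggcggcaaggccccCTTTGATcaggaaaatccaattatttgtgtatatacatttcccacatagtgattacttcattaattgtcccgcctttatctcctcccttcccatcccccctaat
The Fzd7 window is chr1:59481897-59482146, the Wnt11 window chr7:98834862-98835111 and the Sp5 window chr2:70474673-70474922. The match of Fzd7 starts 130 bases before the gene start and that of Wnt11 51 bases before it, and Sp5 has matches that start 222 and 104 bases before it. The Wnt11 window shown is 1 of 2 for that gene, and the other holds no match. Wif1 and Axin2 had a promoter without these letters in the window. A match describes the letters and is no evidence of binding, and its absence says nothing about the factors.

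Other genes of the pathway, 81 in number and taken from lists of ligands, receptors, inhibitors, cytoplasmic and nuclear components, planar polarity genes and targets, were read by the same rule. Of 64 tested, 7 were counted higher (10.9%) and 2 lower (3.13%), with a median log2 difference of 0.24. The gene with the lowest difference was Wnt3, a ligand of the beta-catenin route, at 0.868 FPKM (0.723 to 0.999) in cKO and 5.08 FPKM (4.36 to 5.55) in control, a log2 difference of -1.70. Wnt3 was tested only through its control level. Wnt8b differed in the other direction, at 10.2 FPKM (9.25 to 10.3) in cKO and 3.37 FPKM (2.86 to 3.81) in control, with a log2 difference of 1.35. The intervals of both lay apart, and both differences met the rule under each of the 3 other scalings and missed it with a pseudocount of 5. Ndp, which encodes Norrin, a ligand of Fzd4, was at 12.8 FPKM in cKO and 5.61 FPKM in control (log2 1.06), and Rspo3, an R-spondin, was at 14.5 FPKM in cKO and 8.01 FPKM in control without meeting the rule. Wls, the carrier that brings Wnt ligands to the cell surface, was at 93.0 FPKM in cKO and 49.3 FPKM in control (log2 0.90), while Porcn, the enzyme that adds their lipid, was at 15.3 FPKM in cKO and 17.0 FPKM in control with overlapping intervals.

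Among the other receptors, Lgr6, an R-spondin receptor, was at 6.64 FPKM (6.04 to 6.82) in cKO and 1.31 FPKM (1.06 to 1.56) in control, with a log2 difference of 1.72. Gpr124, the partner of Reck in the response to Wnt7 ligands, was at 36.8 FPKM in cKO and 17.9 FPKM in control (log2 1.001), and Ryk, a kinase-like Wnt receptor, at 21.0 FPKM in cKO and 16.7 FPKM in control (log2 0.31). Both Lgr6 and Gpr124 were counted higher, but Gpr124 lost its call under each of the 3 other scalings, as did Ndp. The inhibitor list had 3 of 4 tested genes counted higher, of which Sfrp4 was at 10.8 FPKM in cKO and 3.71 FPKM in control, Shisa2 at 6.78 FPKM in cKO and 2.17 FPKM in control, and Tmem64 at 47.5 FPKM in cKO and 21.7 FPKM in control. Tmem64 lost its call at the same sum of FPKM (0.77), after centring (0.98) and with a pseudocount of 5, and all 3 lost theirs with that pseudocount. Kremen1, a receptor of Dickkopf proteins, was at 17.7 FPKM in cKO and 9.02 FPKM in control (log2 0.90) and was not counted. Prickle1, a planar polarity gene, was counted lower, at 9.91 FPKM (9.15 to 10.1) in cKO and 30.3 FPKM (27.9 to 30.9) in control, with a log2 difference of -1.52, whereas Vangl1 of the same list was at 14.4 FPKM in cKO and 7.56 FPKM in control (log2 0.84).

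The other cytoplasmic list gave 0 of 14 counted, with a median log2 difference of -0.10, and its most abundant genes, the casein kinases Csnk1a1 and Csnk1d, were at 69.2 FPKM and 45.1 FPKM in cKO and at 81.3 FPKM and 44.2 FPKM in control. The other nuclear list gave 0 of 12 with a median of 0.12, led by the corepressor Ctbp1 at 54.7 FPKM in cKO and 75.2 FPKM in control and by Cby1, a beta-catenin antagonist, at 31.1 FPKM in cKO and 23.2 FPKM in control. Of the other targets, 0 of 8 tested were counted, with a median of 0.26 and differences above 0 for 6 and below 0 for 2. Those below 0 were Myc, at 6.07 FPKM in cKO and 8.83 FPKM in control with intervals apart, and Cd44. The latter was at 13.6 FPKM in cKO and 13.9 FPKM in control with overlapping intervals. The median of this list was -0.07, with 3 of 8 above 0, at the same sum of FPKM. Ccnd1, a cyclin induced by many growth signals, was at 86.1 FPKM in cKO and 54.6 FPKM in control, and Jun at 43.8 FPKM in cKO and 37.2 FPKM in control. With all-gene rates of 4.73% higher and 4.51% lower, 0 counted in lists of this size is near the background. At the same sum of FPKM, the TCF factor Tcf7l2 among the members and, of the other lists, Daam1, the relative of Daam2, and the corepressor Tle2 were counted lower as well, and the members and other lists together then held 6 genes counted higher.

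Markers of several cell types also differed between the 2 libraries. In whole nerve, fewer cells of a type and less RNA per cell cannot be told apart. Of 12 meningeal fibroblast markers, 9 were counted higher and 0 lower. Their median log2 difference was 1.17 and their summed level 4784 FPKM in cKO and 2059 FPKM in control. Their most abundant genes were Igf2, at 1665 FPKM in cKO and 679 FPKM in control, and Col1a2, at 704 FPKM in cKO and 335 FPKM in control. Of 13 astrocyte markers, 4 were counted higher and 0 lower, with a median of 0.74 and sums of 3374 FPKM in cKO and 1907 FPKM in control. Among them S100b was at 561 FPKM in cKO and 324 FPKM in control. The astrocyte differences were above 0 for 12 markers and below 0 for 1. The latter was Aqp4, at 153 FPKM in cKO and 181 FPKM in control with intervals apart. Of 10 mural cell markers, 2 were higher, with a median of 0.85 and sums of 545 FPKM in cKO and 298 FPKM in control, led by Vtn at 312 FPKM in cKO and 160.0 FPKM in control and by Rgs5 at 65.4 FPKM in cKO and 48.3 FPKM in control. At the same sum of FPKM, 3 fibroblast, 1 astrocyte and 0 mural markers were counted higher. None of the markers of these 3 lists was at 0 in either library, and 1 of them, Pdgfrb, belongs to both the fibroblast and the mural list. The median of the tested ligands, 1.05, and that of the tested secreted inhibitors, 1.08, lay between the mural and the fibroblast medians, and the part of these cells in the differences of the Wnt genes was not tested.

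Markers of the oligodendrocyte lineage were lower. All 12 markers of mature oligodendrocytes were counted lower. Their median log2 difference was -2.68 and their sums were 3923 FPKM in cKO and 28787 FPKM in control, led by Mbp at 2013 FPKM in cKO and 15976 FPKM in control. Of 9 markers of newly formed oligodendrocytes, 6 were counted lower, with a median of -1.72 and sums of 317 FPKM in cKO and 1448 FPKM in control. Nfasc was at 73.2 FPKM in cKO and 420 FPKM in control, and Bcas1 at 58.9 FPKM in cKO and 410.0 FPKM in control. Of 10 precursor markers, 4 were lower, with a median of -0.77 and sums of 208 FPKM in cKO and 269 FPKM in control, while Ptprz1 was at 56.4 FPKM in cKO and 51.8 FPKM in control and Matn4 at 48.8 FPKM in cKO and 48.9 FPKM in control. The log2 difference of Tcf7l2, -0.79, was nearer to the precursor median than to that of newly formed oligodendrocytes, and the part of this lineage in the value was not tested.

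For the other cell types 0 markers were counted in either direction. The median log2 difference was 0.36 for 10 endothelial markers (summed level 232 FPKM in cKO and 179 FPKM in control), with Cldn5 at 68.5 FPKM in cKO and 64.1 FPKM in control and Cdh5 at 38.5 FPKM in cKO and 20.9 FPKM in control. It was 0.54 for 10 microglia markers (559 FPKM in cKO and 376 FPKM in control), with C1qb at 125 FPKM in cKO and 69.8 FPKM in control and C1qc at 120 FPKM in cKO and 66.9 FPKM in control. It was 0.38 for 4 tested of 8 Schwann cell markers, which summed to 17.8 FPKM in cKO and 14.5 FPKM in control and of which Foxd3 was listed at 0 in cKO, with Cdh19 at 6.18 FPKM in cKO and 7.42 FPKM in control and Dhh at 5.61 FPKM in cKO and 3.52 FPKM in control. It was 0.47 for 6 tested of 9 neuron and retina markers (50.6 FPKM in cKO and 32.6 FPKM in control), with Thy1 at 28.1 FPKM in cKO and 18.1 FPKM in control and Rbpms at 9.72 FPKM in cKO and 4.55 FPKM in control. The endothelial list lay under Wnt7b, Gpr124 and Ndp in its median and above Lef1 and Fzd4. Its genes ran from 0.05 to 0.85, a range that holds Lef1 and Fzd4. The part of vessel cells in these values was not tested.

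**Figure D4:**
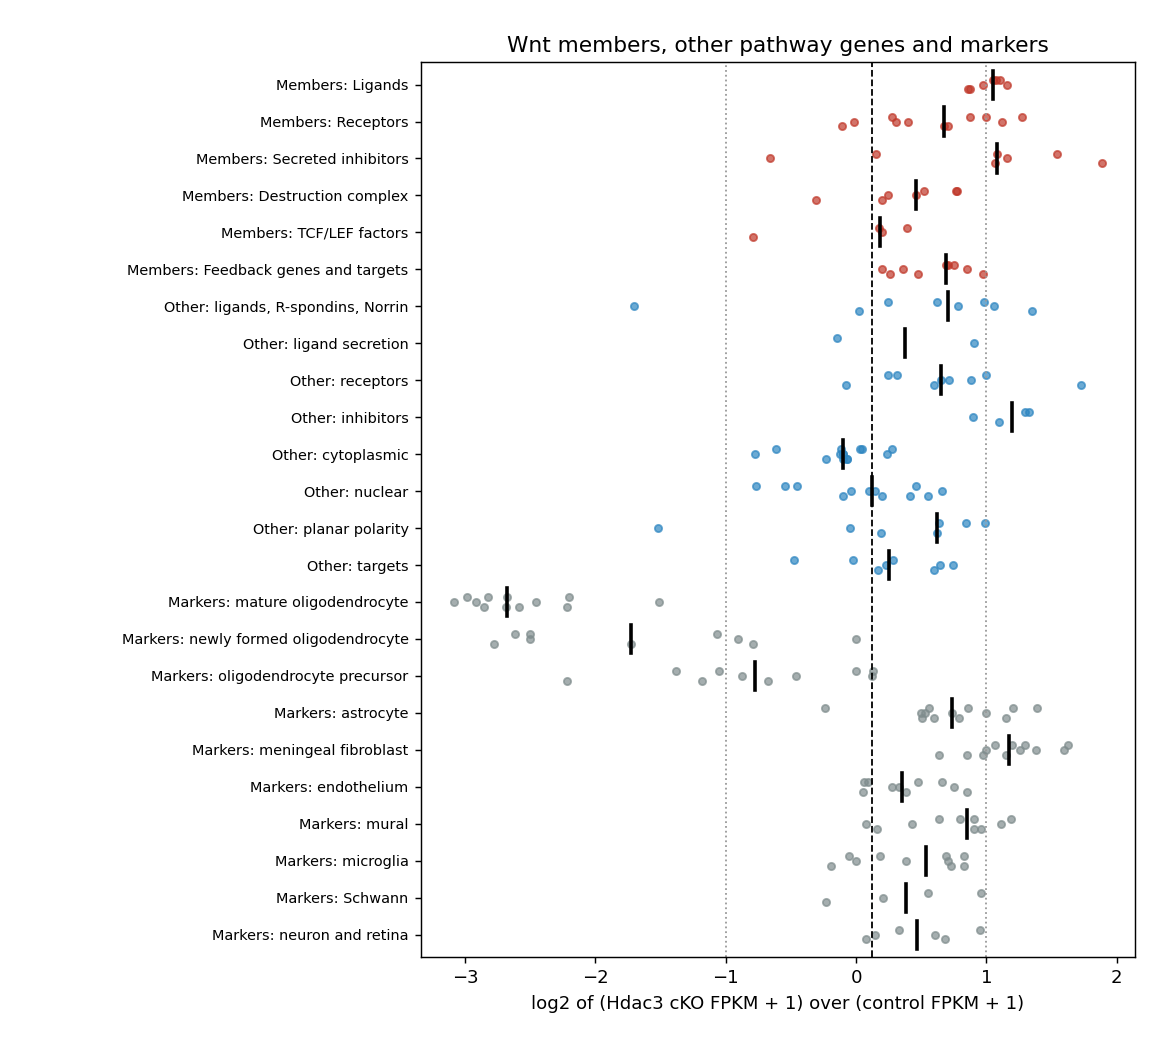
Log2 differences, cKO over control with a pseudocount of 1, of tested genes in each list. Each point is a gene, black bars are list medians, the dashed line is the median of all tested genes (0.12) and dotted lines mark 2-fold; the row named destruction complex also holds the dishevelled genes and Daam2. Ligand and secreted inhibitor medians (1.05 and 1.08) lie near that of meningeal fibroblast markers (1.17), and oligodendrocyte markers lie far to the left (-2.68 for mature cells).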

How the data were processed

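Per the file headers, the authors deposited FPKM per gene with an interval and a status for 1 cKO and 1 control library. CASAVA, TopHat, Cufflinks and the mm9 build were named in the submitters' processing notes. Versions, annotation, scaling total, interval level and read numbers were not found there, so depth is unknown. Per the labels' protocols, the TruSeq RNA kit was used, which does not mark strand.

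The tables were joined by symbol, start site group and locus, and of several entries of a symbol the one with the largest FPKM sum was kept. Tested genes had status OK in both libraries and FPKM of at least 1 in at least 1. The pseudocount was 1 FPKM, and the rule for a count was 2-fold with intervals apart. Python 3.11.15, pandas 2.3.3 and numpy 2.4.6 were used. The counting rule was run on simulated data whose intervals were centred on each value, with no shift in scale between libraries. That run checks the code and not how the rule behaves in these libraries. Loci are 1-based. Members and lists were chosen with earlier results of these data known. All members are named. Of the other lists, counted genes and the 2 with the highest mean FPKM are named, and of the marker lists those 2, of which some are not reported here. Reck, Daam1, Tle2, Myc, Cd44 and Aqp4 were named after their values were seen. Alternatives were 11 settings of threshold, interval rule, pseudocount, minimum FPKM, scaling and entries. The planned promoter windows were shortened to the 250 bases before the gene start.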

Additional observations from a re-analysis of the deposited data

How the results depend on the processing

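No paired analysis was possible because each group has 1 library, and for the same reason no library could be left out. On the deposited scale 12 members were counted higher and 0 lower, beside 669 and 638 of all tested genes. A threshold of 1.5-fold gave 25 members higher and 2 lower (2262 and 1253 of all genes), and 3-fold gave 1 higher (91 higher and 247 lower of all genes). With a pseudocount of 0.1, 1 member was lower and 1156 of all genes were higher. With a pseudocount of 5, 3 members were higher (282 higher and 339 lower of all genes), and the median log2 difference was 0.52 for members, 0.76 for ligands and 0.87 for secreted inhibitors. The last was 1.35 with a minimum of 5 FPKM, which left 4 inhibitors. At the same sum of FPKM, 2 members were higher and 1 lower (215 and 963 of all genes). The medians were then 0.38 for members, 0.75 for ligands, 0.36 for receptors, 0.82 for secreted inhibitors, 0.14 for cytoplasmic components and 0.38 for feedback genes and targets. The median was -0.0883 for TCF/LEF factors and -0.17 for all tested genes, and both changed sign. Centring on the median of all genes left 6 members higher (439 of all genes). The thresholds, pseudocounts and scalings move every gene against the rule by construction, and the minimum of 5 FPKM changes no log2 difference and leaves fewer genes. Of the 12 counted members, 1 (Wif1) kept its call in each pseudocount, minimum, scaling and entry setting that tested it, and 11 lost theirs in at least 1. Of members not counted, 5 were counted in at least 1 such setting. These were Wnt5a (1.05), Wnt9a (1.06), Nkd2 (1.09) and Sfrp2 (-1.01) with a pseudocount of 0.1, and Tcf7l2 (-1.09) at the same sum. Values that exceed or lie under their own deposited interval, 13 of 48 in cKO and 3 of 48 in control, limit what the intervals cover, and the unknown depth limits the low genes most. Among the 12 counted members, 8 have a cKO value above its own interval.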

Other observations

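Some related genes of the pathway stood in different ratios in the 2 libraries, and a ratio within a library does not depend on the scaling between them. Daam2 stood at 6.94 times Daam1 in the cKO-labelled library and at 2.31 times in the control-labelled library, with Daam1 at 18.8 FPKM in cKO and 32.9 FPKM in control. Lgr6 stood at 0.457 times Lgr4 in cKO and 0.152 times in control, and Lgr5 at 0.0308 times Lgr4 in cKO and 0.1002 times in control. Wnt8b stood at 11.7 times Wnt3 in cKO, where Wnt3 was under 1 FPKM, and 0.664 times in control. Tcf7l2 stood at 0.709 times Tcf7l1 in cKO and 1.51 times in control. The summed ligands stood at 0.841 times the summed Frizzled receptors in cKO and 0.685 times in control. These pairs were chosen after their values were seen.

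The loci of 9 members overlap another entry, and without strand the reads of such genes can be mixed. The locus of Lgr5 overlaps A930009A15Rik, which was at 0.556 FPKM in cKO and 4.87 FPKM in control, with a log2 difference of -1.92 and intervals apart, while Lgr5 itself stayed under 1 FPKM in both. Of the 12 counted members, 1 (Wnt7b) has such an overlap. Its neighbour AU022754 was at 1.04 FPKM in cKO and 1.90 FPKM in control, the opposite direction to Wnt7b.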
